A study of Drosophila melanogaster with 2 samples.

Results

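Small nucleolar RNA (snoRNA) genes and the genes that carry them were examined for binding of the CG15812 protein in Drosophila melanogaster embryos. The members are all genes with the snoRNA biotype in the Ensembl annotation on the chromosome arms, 269 of 18164 annotated genes there. A snoRNA gene was called hosted when another gene on the same strand spans it, and the shortest such gene was taken as its host. By this rule 247 snoRNA genes lay in 92 host genes and 22 lay outside, 10 of them under a gene of the opposite strand. The host carried the snoRNA gene within an annotated exon in 17 cases and outside a single exon in 230. The measurements are chromatin immunoprecipitation with sequencing (ChIP-seq) of whole embryos aged 0 to 24 h, both sexes pooled, from a fly line that stably makes CG15812 with green fluorescent protein at its C-terminus. The 2 biological replicates form the only group, and no untagged or mutant group is compared. Because whole embryos were used, a signal cannot be assigned to any tissue. The labels name the factor pfk, a symbol the annotation gives to another gene, and 1 description entry on each sample calls it an input control although the antibody entry and the assay title name the immunoprecipitation; the libraries are treated here as immunoprecipitated.

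SnoRNAs are short nuclear RNAs that guide chemical modification of ribosomal and spliceosomal RNA. Box C/D snoRNAs carry fibrillarin and direct methylation of the ribose, whereas box H/ACA snoRNAs carry dyskerin and direct the conversion of uridine to pseudouridine. Most Drosophila snoRNAs have no transcription unit of their own: they are cut out of introns of a host transcript, and typical hosts encode ribosomal proteins or other parts of the translation machinery, or are non-coding Uhg genes (U snoRNA host genes) whose spliced exons have no known protein product. The small Cajal body RNAs (scaRNAs), which share the same boxes, guide modification of spliceosomal RNAs. The promoters of ribosomal protein genes in flies start at a pyrimidine-rich TCT initiator rather than the common initiator sequence.

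The promoters below belong to hosts with an IDR summit within 100 bp of a TSS. The summits are not marked, and those of kra and Hrb98DE, 71 and 70 bp upstream of the TSS, lie outside the printed bases. Each line gives 61 bases of the coding strand, from 50 before to 10 after the host's annotated transcription start site (TSS) nearest to the summit, from the RefSeq copy of the Release 6 assembly (dm6). Capitals mark GGAACG on either strand (CGTTCC on the other strand), GGTCACAC on the coding strand, which is the motif of the promoter protein M1BP, and CTTT, the core of the TCT initiator, with its C up to 10 bp from the TSS. RpS5a is at chrX:17148254-17148314 (minus strand), RpS7 at chr3R:30208932-30208992 (minus), RpL3 at chr3R:11221844-11221904 (plus), RpL27A at chr2L:4458307-4458367 (minus), RpL4 at chr3R:27922771-27922831 (plus), RpL17 at chrX:6744161-6744221 (minus), kra at chr3R:5600561-5600621 (minus) and Hrb98DE at chr3R:28600357-28600417 (plus). The first 6 are ribosomal protein hosts, and kra and Hrb98DE are other protein-coding hosts of many snoRNAs.
RpS5a: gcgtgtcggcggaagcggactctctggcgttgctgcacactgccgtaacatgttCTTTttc
RpS7: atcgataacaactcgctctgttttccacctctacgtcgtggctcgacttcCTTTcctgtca
RpL3: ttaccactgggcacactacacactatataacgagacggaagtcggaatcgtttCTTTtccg
RpL27A: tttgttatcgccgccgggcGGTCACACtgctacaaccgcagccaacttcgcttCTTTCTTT
RpL4: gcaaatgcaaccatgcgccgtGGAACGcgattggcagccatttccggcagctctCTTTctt
RpL17: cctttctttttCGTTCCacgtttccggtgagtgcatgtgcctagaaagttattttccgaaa
kra: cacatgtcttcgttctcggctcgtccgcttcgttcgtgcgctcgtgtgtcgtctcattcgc
Hrb98DE: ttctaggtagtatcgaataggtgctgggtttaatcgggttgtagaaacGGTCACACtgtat

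The snoRNA genes outside other genes have no host promoter, and the pair below shows a summit that lies near or in the RNA gene itself. The RNA-coding strand of each gene is given from its start to its end, with the ACA box near the 3′ end in capitals, followed by 61 bases centred on the summit on the same strand, with the summit base in capitals. Psi18S-301 is at chr3R:20574906-20575043 (plus strand) and its summit window at chr3R:20574741-20574801. Psi28S-3342 is at chrX:5524302-5524465 (minus strand) and its summit window at chrX:5524426-5524486.
snoRNA:Psi18S-301: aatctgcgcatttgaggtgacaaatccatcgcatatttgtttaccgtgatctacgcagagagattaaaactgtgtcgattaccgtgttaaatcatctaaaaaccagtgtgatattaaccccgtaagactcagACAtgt
snoRNA:Psi18S-301 summit: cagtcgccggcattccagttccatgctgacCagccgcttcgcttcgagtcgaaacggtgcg
snoRNA:Psi28S-3342: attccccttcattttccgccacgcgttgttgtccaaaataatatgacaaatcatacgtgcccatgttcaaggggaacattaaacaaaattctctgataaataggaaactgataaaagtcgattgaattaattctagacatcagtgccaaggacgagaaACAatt
snoRNA:Psi28S-3342 summit: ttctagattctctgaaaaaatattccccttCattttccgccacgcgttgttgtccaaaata

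The symbols of the snoRNA genes fitted the boxes in their sequences. By symbol, 114 genes are box H/ACA (106 pseudouridylation guides and 8 orphans) and 91 are box C/D (77 methylation guides and 14 orphans). A further 16 are scaRNAs, 16 have U-numbered symbols and 32 have other names. An ACA 2 to 4 nt before the 3′ end was present in 107 of 114 H/ACA genes and in 4 of 91 C/D genes. A TGATGA in the first 25 nt together with a CTGA in the last 25 nt, the core of boxes C and D, was present in 62 of 91 C/D genes and in 0 of 114 H/ACA genes. The median length was 140 nt for H/ACA genes and 79 nt for C/D genes.

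Promoter summits were found at most hosts of snoRNA genes. The authors' thresholded list holds 2886 regions, derived from both replicates with an irreproducible discovery rate (IDR) threshold. These are the regions of highest signal with the replicates pooled, so a listed region can rank low in 1 replicate. A summit is the position of highest signal in a region. A host was called bound when an IDR summit lay within 1 kb of any of its annotated TSSs. Of 92 hosts, 53 (57.6%) were bound, against a background of 16.0% of all 13945 protein-coding genes and 8.49% of all 3261 ncRNA genes. The bound hosts contain 142 of the 247 hosted snoRNA genes, and the unbound hosts contain 105. The 25 hosts with 3 or more snoRNA genes were bound in 16 cases (64.0%) and the 67 hosts with 1 or 2 in 37 cases (55.2%). With 1 group and 2 replicates no test between groups is possible, and snoRNA genes of 1 host lie in the same gene and are not independent. The 142 include the snoRNA genes of lola and kis, which lie upstream of the bound TSS of their host.

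**Figure D1:**
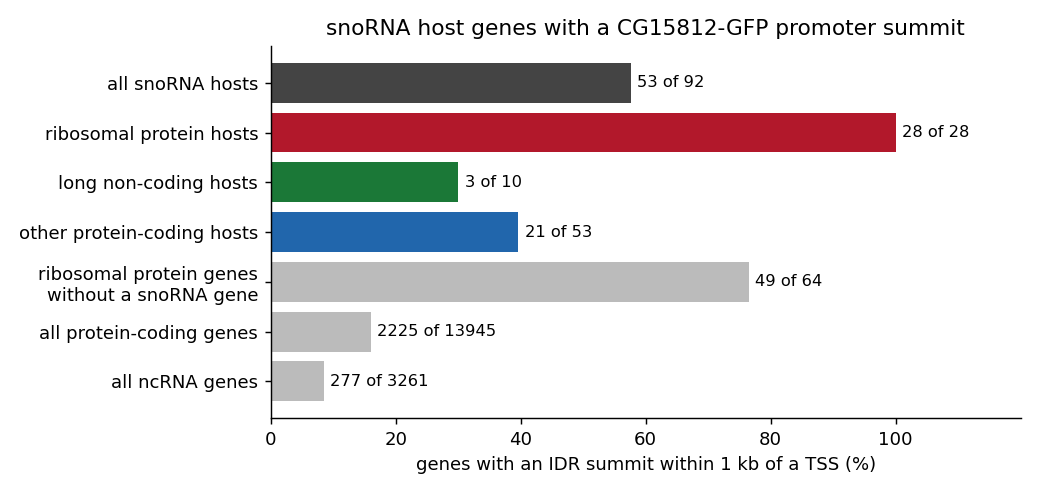
Share of genes with an IDR summit within 1 kb of a TSS (x axis, percent), for all snoRNA hosts and 3 host classes above and for 3 sets of other genes (grey) below; the numbers are bound genes of all genes in a set. All 28 ribosomal protein hosts were bound, against 49 of 64 ribosomal protein genes with no snoRNA gene inside them on their strand; 1 translation factor host, which was bound, is counted only among all hosts.

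All 28 ribosomal protein hosts were bound, and the other classes of host were mixed. The only translation factor host was bound too: eEF1alpha1, which brings aminoacyl-tRNAs to the ribosome. Of 53 other protein-coding hosts, 21 (39.6%) were bound, and of 10 long non-coding hosts 3 (30%) were. With the ribosomal protein hosts left out, 25 of 64 hosts were bound (39.1%). Ribosomal protein genes that span no snoRNA gene on their strand were bound in 49 of 64 cases (76.6%), so binding at ribosomal protein promoters was not limited to hosts. The median pooled signal was 380 at the 28 ribosomal protein hosts and 371 at the 49 bound ribosomal protein genes without a snoRNA gene. RpL23A, which spans snoRNA genes assigned to the shorter gene Uhg7, is in neither set. The signal is a deposited score that the authors gave each region, in units whose scaling the labels and notes do not state.

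**Figure D2:**
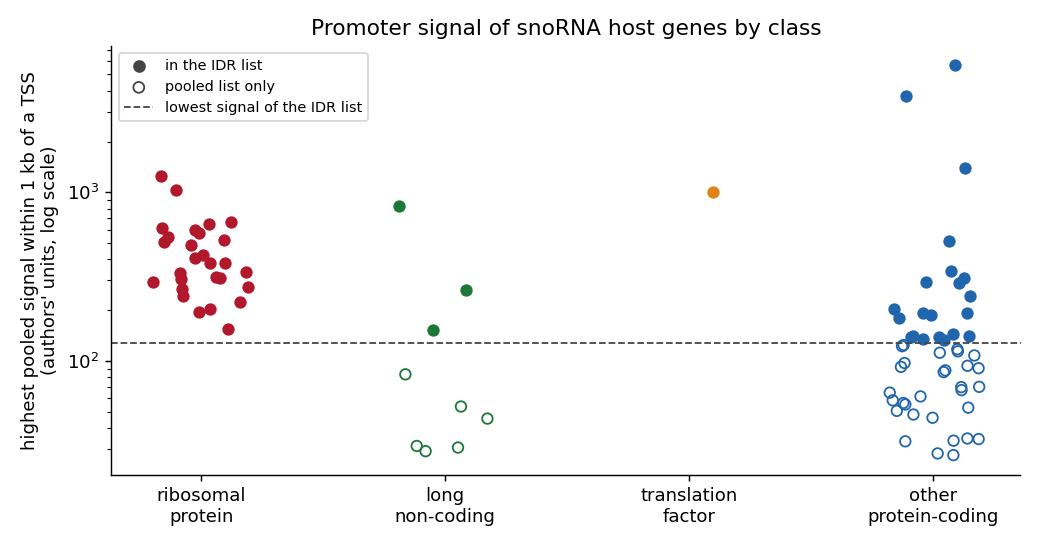
Highest pooled signal within 1 kb of a host TSS (y axis, authors' units, log scale) by class of host; each point is 1 host, filled where it is in the IDR list and open where only the relaxed pooled list holds it, and the dashed line is the lowest signal of the IDR list, 127.8. The ribosomal protein hosts all lie above the line, up to 1243, while the long non-coding and other protein-coding hosts lie on both sides of it; 3 hosts without a pooled region are not drawn.

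The hosts of highest signal were not ribosomal protein genes. Dys, the fly dystrophin gene (chr3R:19461085-19597288), had the strongest host summit, with signals of 3102 (replicate 1), 2584 (replicate 2) and 5654 (pooled list). That summit lay 586 bp downstream of a Dys TSS, and a second one of 4314 lay 66 bp upstream of a Dys TSS. At tou, which encodes a chromatin protein, the strongest of 6 IDR summits had signals of 1912 (replicate 1), 1844 (replicate 2) and 3737 (pooled), 788 bp downstream of a TSS. The summit closest to a tou TSS, 55 bp upstream, had a pooled signal of 1647. Dys and tou each carry 1 snoRNA gene. The third, kra, which encodes a translation regulator and carries 8 H/ACA snoRNA genes, had 723 in replicate 1, 664 in replicate 2 and 1390 pooled at a summit 71 bp upstream of a TSS.

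Among the ribosomal protein hosts RpL5 was highest, with 665 in replicate 1, 589 in replicate 2 and 1243 pooled. RpL15 followed with 488, 556 and 1034 in the same order, then RpL14 with 410, 260 and 666, RpS4 with 398, 252 and 649, and RpS3A with 369, 264 and 615. All of these summits lay within 100 bp of the host TSS, at 66, 58, 20, 3 and 48 bp upstream. RpS5a, which carries 14 H/ACA snoRNA genes, the most of any bound host, was in the middle of the bound hosts with 170 in replicate 1, 173 in replicate 2 and 331 pooled, 9 bp upstream of its TSS. RpS7 with 7 H/ACA genes had 199, 125 and 315 in the same order, 3 bp downstream of its TSS. Among these named hosts more snoRNA genes did not always go with a higher signal: Dys and tou with 1 each were far above RpS5a with 14. A relation over all hosts was not tested.

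Of the remaining ribosomal protein hosts with at least 3 snoRNA genes, RpL28 (5 C/D genes) had 285 in replicate 1, 230 in replicate 2 and 490 pooled. RpL3 (4 genes) had 257, 120 and 381 in the same order, RpS16 (5 genes) 201, 178 and 379, and RpL17 (4 genes) 172, 143 and 310. Over the bound hosts, 53 in all, the median pooled signal was 309, beside a median of 206 over the bound protein-coding genes and 202 over all IDR peaks.

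Among the other protein-coding hosts with several snoRNAs, Hrb98DE, an hnRNP gene with 7 H/ACA snoRNA genes, had 170 in replicate 1, 122 in replicate 2 and 292 pooled, 70 bp upstream of its TSS. Nop60B is the fly dyskerin, the pseudouridine synthase that works with the H/ACA snoRNAs, and it carries 7 snoRNA genes of its own, 6 of them C/D. Its promoter had 117 in replicate 1, 87.8 in replicate 2 and 243 pooled. Stt3A, a catalytic subunit of the oligosaccharyltransferase, carries 3 snoRNA genes and had 181, 154 and 341 at a summit 684 bp downstream of a TSS. pAbp, the poly(A)-binding protein gene, carries 3 H/ACA genes and had 88.6, 50.3 and 140.

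Among the lowest bound hosts were lola, kis, hfp and nop5, with pooled signals of 134.3, 139.1, 139.3 and 139.7, just above the lowest signal of the IDR list, 127.8. lola encodes a zinc finger transcription factor, kis a chromodomain helicase, hfp a splicing regulator and nop5 a core protein of box C/D particles. At lola, which carries 4 snoRNA genes, the replicates were far apart, at 114.8 in replicate 1 (rank 1418) and 33.0 in replicate 2 (rank 8475). At nop5 they were close, at 74.7 and 70.6. The lola summit lay 1654 to 2264 bp downstream of the starts of its snoRNA genes, and the kis summit 10238 bp downstream of the start of its own. The bound TSS of each of these hosts therefore lies downstream of its snoRNA genes.

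Of the 10 long non-coding hosts 3 were bound, each within 100 bp upstream of its single annotated TSS. Uhg4 (chr2R:9095273-9097312), which carries 7 snoRNA genes, had 541 in replicate 1, 293 in replicate 2 and 835 pooled. Uhg5 (chr2R:14621601-14624498), with 11 C/D snoRNA genes, had 153, 114 and 263 in the same order. Uhg2 (chr2L:9893805-9895003), with 4, had 81.5, 72.7 and 153. The unbound members of this class span a range below the threshold. Uhg1, which has 16 snoRNA genes, had a pooled summit 59 bp upstream of its TSS, with 56.5 in replicate 1, 18.2 in replicate 2 and 68.7 pooled. A stronger one, still under the threshold, lay at an offset of -727 bp, with 50.01, 36.2 and 83.2 in the same order. Uhg3 had 53.7 pooled at 46 bp upstream and Uhg8 45.5 at -727 bp, both listed in replicate 1 only among the replicates, and the host lncRNA:CR45184 with 5 C/D genes had 30.6. Uhg7 had no pooled region within 1 kb. Its 4 snoRNA genes also lie in the longer gene RpL23A, whose promoter had an IDR summit of 514 at 59 bp upstream.

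Hosts of many snoRNA genes were also among the unbound. Arpc2 encodes a subunit of the actin-nucleating Arp2/3 complex and carries 17 H/ACA snoRNA genes, the most of any host. It had 60.2 in replicate 1, no summit within 200 bp in replicate 2 and 55.2 pooled, at 626 bp downstream of a TSS. dom encodes a chromatin remodelling ATPase that exchanges histone H2A.V and carries 15 snoRNA genes; its promoter summit, 8 bp upstream, had 78.8 in replicate 1, 45.2 in replicate 2 and 117 pooled. Sf3b3, a splicing factor gene with 4, had 61.4, 33.7 and 92.2, and CG10576 with 5 had 27.6 pooled. SC35, a splicing factor gene with 2, had 33.4, 81.8 and 112. Just outside the threshold lay CG3902 at 124, Irbp at 122, dom at 117, Gp210 at 114 and SC35 at 112, so the promoters of these hosts carried pooled regions that the threshold left out. Of the 39 unbound hosts, 36 had a pooled region within 1 kb, with a median of 59.97 and a range of 27.6 to 124, and 3 had none: lds, tra2 and Uhg7.

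The replicates ranked the bound hosts alike. All 53 had a summit within 200 bp in both replicates, and 46 were among the 2886 highest in each replicate. No unbound host was among them in both, and 5 were in a single replicate. The log2 difference of replicate 1 minus replicate 2 had a median of 0.31 (SD 0.43) at the bound hosts and was positive at 45 of 53, beside a median of 0.21 (SD 0.54) over all IDR peaks. The Spearman correlation of the replicate signals was 0.914 over these 53 promoters. It is a description only, since the hosts were called from both replicates and the replicates share 1 control alignment.

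**Figure D3:**
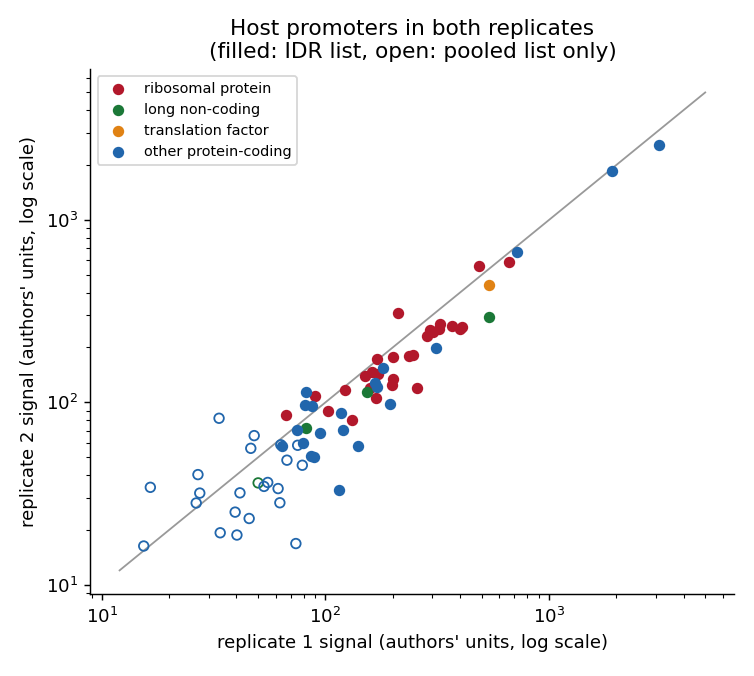
Signal of replicate 2 (y axis) against replicate 1 (x axis, both in authors' units on log scales) at the strongest pooled summit of the 76 hosts with a summit in both replicates; filled points are the 53 bound hosts, open points the 23 unbound ones, colours give the class and the line marks equal signal. Most filled points lie below the line, with replicate 1 higher at 45 of 53; lola is the filled point farthest below it.

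Summits at bound hosts lay at the host's own promoter in most cases. The summit closest to a host TSS was within 100 bp of it at 45 of 53 bound hosts, 43 were upstream of the TSS, and the median offset was -39 bp. At 7 hosts the strongest summit, whose signal is given above, was not the closest. The strongest summit was within 100 bp of a host TSS at 41 of 53, and at 39 the host was also the gene with the nearest TSS. For the closest summit the host was the gene with the nearest TSS at 47 of 53. At the other 6 a neighbour's TSS was nearer, among them inc at sta, bves at Stt3A, CalpA at hts, CR33222 at RpS6 and CG11109 at Arf1. The 6 include 2 ribosomal protein hosts, so sta and RpS6 were called bound from a summit that a neighbour shares. RpS9, bound by the 1 kb rule, had its only IDR summit 543 bp upstream of its TSS. A pooled summit under the threshold lay 101 bp downstream of a RpS9 TSS, with 66.2 in replicate 1, 20.8 in replicate 2 and 80.6 pooled.

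Summits near hosted snoRNA genes lay, with 3 exceptions, at a host promoter. An IDR summit lay within 1 kb of the start of 47 of 247 hosted snoRNA genes (19.0%), against a background of 13.1% of all 18164 gene starts. For 44 of the 47, in 27 hosts, the same summit lay within 1 kb of the host TSS, and for 43 it was closer to the host TSS than to the snoRNA start. Over the 44 the median distance was 30.5 bp from summit to host TSS and 706 bp from summit to snoRNA start. No hosted snoRNA gene had an IDR summit inside it. For example, Uhg4 carries Psi28S-2949 at 99 bp from its TSS, Or-aca5 at 412 bp, Me28S-G3255a at 723 bp and Me28S-A982a at 964 bp, and all of these count as near 1 summit, 22 bp upstream of the TSS.

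Whether a hosted snoRNA gene counted as near followed its distance from the host start. Of the 86 snoRNA genes within 1 kb of a host TSS, 43 were near an IDR summit: 43 of 59 in bound hosts and 0 of 27 in unbound hosts. The definition of an unbound host excludes summits from much of the window around these 27 starts, so that 0 is largely set by the rule. A bound host has a summit within 1 kb of a TSS by definition, so the 43 of 59 is also set in part by the rule. Of the 161 genes farther than 1 kb, 4 were (2.48%), and 3.88% of all bases of the arms lie within 1 kb of an IDR summit. Those 4 were Me28S-U3344a in Stt3A, hts-a in hts, and Or-CD9a and Or-CD9b in Nop60B. The summit at hts-a (signal 1229, 717 bp upstream) lay 64 bp from a tRNA-Val gene, and that at the Nop60B pair (signal 4089) lay 38 bp from the TSS of ocm. The pooled list, which is relaxed and includes background, had a summit within 1 kb of 114 hosted snoRNA genes (46.2%), against 57.8% of all gene starts.

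**Figure D4:**
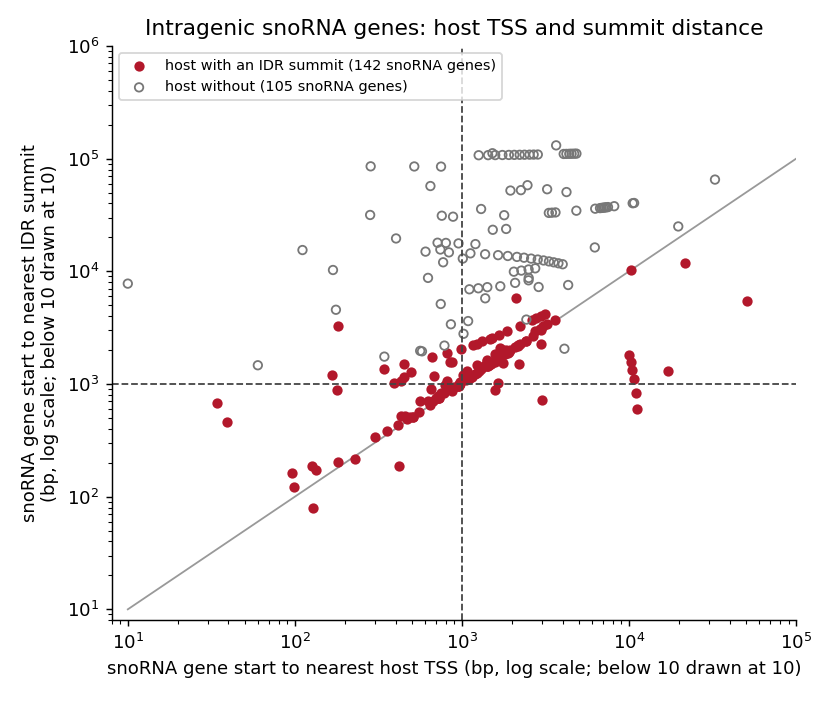
Distance from the start of each of the 247 hosted snoRNA genes to the nearest IDR summit (y axis) against its distance to the nearest host TSS (x axis, both in bp on log scales, with values below 10 drawn at 10); filled points are the 142 genes in bound hosts, open points the 105 in unbound hosts, dashed lines mark 1 kb and the diagonal marks equal distances. Genes in bound hosts gather on the diagonal, as when summit and host TSS coincide, and 0 of the 105 open points are below the horizontal 1 kb line. For open points left of the vertical line this is largely set by the definition of an unbound host.

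Both major kinds of guide were found in bound hosts. Of 105 hosted H/ACA genes, 66 were in a bound host, and of 86 hosted C/D genes, 59 were. C/D genes lay closer to the host start, with a median of 966.5 bp against 1580 bp for H/ACA genes. A summit was within 1 kb of the start of 28 of 91 C/D genes (30.8%) and 18 of 114 H/ACA genes (15.8%), hosted or not, against 13.1% of all gene starts, so the H/ACA share was near the background. Of 14 hosted scaRNA genes 5 were in a bound host, and of 13 hosted U-numbered genes 4 were. Over all kinds the count was 142 of 247 hosted snoRNA genes. The 4 U-numbered genes lie in Uhg2 and RpL14 and the other hosted ones in Uhg1, so they are not independent.

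The snoRNA genes outside other genes were near IDR summits in 7 of 22 cases (31.8%), against the background of 13.1% of all gene starts, and these 7 genes share 5 summits. Among the 2886 strongest regions of replicate 2 alone, without replicate 1, the count was 2 of 22 (9.09%). With the 1443 strongest IDR peaks it was also 2. The share of all gene starts was not recounted for either list, so the 13.1% is no background for these counts. The highest was at Psi18S-301, an H/ACA pseudouridylation guide, with 212 in replicate 1, 95.0 in replicate 2 and 314 pooled, 135 bp upstream of the gene start. The nearest TSS of another gene, TFAM, was 2239 bp away from that summit. At Psi18S-176 (chr2R:23839911-23840064, minus strand) the summit lay inside the gene, 29 bp after its start, with 174, 107 and 285 in the same order. The TSS of lncRNA:CR44805 was 542 bp from it.

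At Psi28S-3342 the summit also lay inside the RNA gene, 9 bp after its start, with 70.8 in replicate 1 (rank 3152), 61.1 in replicate 2 (rank 2921) and 136.5 pooled. No TSS of another gene lay within 1 kb of it, the nearest being 6956 bp away. Near snoRNA:185 the summit of 168 in replicate 1, 57.1 in replicate 2 and 201 pooled lay 261 bp upstream of the snoRNA gene and 118 bp from the start of a tRNA-Glu gene, which was the closer of the pair. The remaining summit served a run of 3 minus-strand genes, snoRNA:2R:9445410, snoRNA:2R:9445205 and Psi28S-1153, at 43, 248 and 412 bp upstream of their starts. It had 134 in replicate 1 (rank 1147), 39.7 in replicate 2 (rank 6190) and 177 pooled, and the TSS of CG13334 was 447 bp away. The signal was higher in replicate 1 at each of the 5 summits.

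Of the 7 genes, 5 had their summit within 1 kb of another gene's TSS, and for 1 of them that TSS was closer than the snoRNA start. The 15 other genes outside had no IDR summit within 1 kb. Among them were the U3 genes, which encode the box C/D RNA needed for cleavage of the ribosomal RNA precursor: the nearest pooled summits had signals of 36.5 at U3:54Aa, 54.4 at U3:54Ab and 80.1 at U3:9B. The pooled list had a summit within 1 kb of 21 of the 22 genes (95.5%), against 57.8% of all gene starts. Some of these 21 genes share a pooled summit, so they are not independent, and the pooled list includes background.

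**Figure D5:**
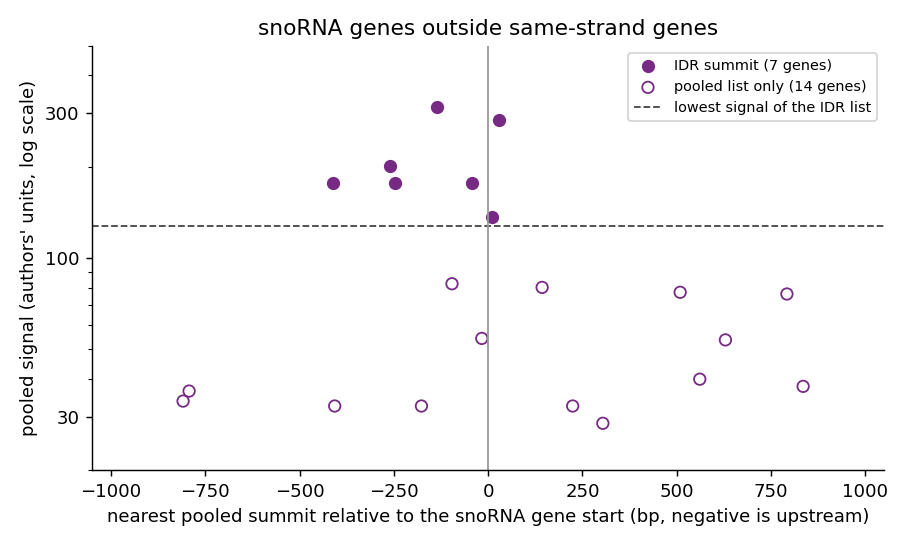
Pooled signal of the pooled summit nearest to each snoRNA gene outside other genes (y axis, authors' units, log scale) against its position relative to the gene start (x axis, bp, negative is upstream), for the 21 of 22 genes with one within 1 kb; filled points are the 7 genes with an IDR summit and the dashed line is the lowest signal of the IDR list. The filled points lie between 412 bp upstream and 29 bp downstream, 3 of them at the same signal because they share a summit.

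The sequence GGAACG, chosen from earlier results on these peaks, was present on either strand within 50 bp of the strongest summit of 6 of 53 bound hosts (11.3%), beside 281 of 2042 IDR summits within 1 kb of any TSS (13.8%). The 6 were Dys and eEF1alpha1 with 2 copies each and tou, RpL4, RpL7A and RpL17 with 1 each. The strongest eEF1alpha1 summit lay at an offset of -665 bp and nearer to the TSS of ERp60. Those of Dys and tou lay 586 and 788 bp downstream of a TSS. RpS5a, RpS7 and kra had none. A motif match is a description of the letters and no measure of binding.

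Other promoter motifs were counted from 250 bp before to 50 bp after the gene's 5′ end. TATCGATA, the DNA replication-related element (DRE), was present on either strand at 18 of 92 hosts (19.6%), against 9.37% of protein-coding genes, and at 8 of 28 ribosomal protein hosts and 20 of 64 ribosomal protein genes without a snoRNA gene. GGTCACAC was at 11 hosts (12%), against 7.71% of protein-coding genes. CTTT with its C within 3 bp of the gene's 5′ end, on the coding strand, was at 9 hosts (9.78%), against 3.24%. Read at every annotated TSS and up to 10 bp away, CTTT was at 23 of 28 ribosomal protein hosts (82.1%), 52 of 64 ribosomal protein genes without a snoRNA gene (81.2%) and 14.9% of protein-coding genes. That wider window was chosen after the data had been seen. Outside the ribosomal protein genes it was at 10 of 25 bound hosts and at 9 of 39 unbound hosts. None of the 22 snoRNA genes outside other genes had any of the 4 motifs in the window around its start. Over all genes the shares were 7.2% for GGAACG, 7.52% for TATCGATA, 6.13% for GGTCACAC and 3.24% for CTTT within 3 bp. Over the 247 hosted snoRNA genes they were 5.26%, 1.21%, 0.405% and 4.45% in the same order. At shares this low, few of 22 genes would carry any given motif.

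Of 27 listed genes that make and mature snoRNA particles, 9 (33.3%) had an IDR summit within 1 kb of a TSS, beside 53 of 92 hosts (57.6%) and against the background of 16.0% of protein-coding genes. Among the core proteins of box C/D particles, nop5 was bound with a pooled signal of 140 and hoip with 165, while Fib, the methyltransferase fibrillarin, had 93.6 and Nop56 104, both under the threshold. Among the H/ACA core proteins Nop60B was bound with 243 and Nop10 with 280, while NHP2 had 90.5 and Gar1 46.0. Nopp140, a nucleolar protein that associates with snoRNA particles, was bound with 165.

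The other bound genes of the list encode parts of the RNA exosome, which trims the ends of snoRNAs after splicing. Rrp4 had a pooled signal of 214, Rrp6 147, Dis3 132 and Rrp40 387, the last at an offset of -914 bp from the Rrp40 TSS and nearer to Eno. Other exosome genes of the list were unbound: Rrp42 had 114, Rrp45 75.3, Ski6 57.0, Rrp46 33.4 and Csl4 33.2. Mtr3 had no pooled region within 1 kb. The summits at hoip and Nop10 were nearer to the TSS of a neighbour, Pka-C1 and mms4. Fib, nop5 and Nop60B are hosts of snoRNA genes themselves. The tagged gene, CG15812, had a pooled signal of 1783 at its own promoter, above all hosts except Dys and tou.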

How the data were processed

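ChIP-seq regions came from 4 lists deposited by the authors on dm6, per the labels: 30000 relaxed regions per replicate and for the pooled replicates, made with 1 shared control alignment per the deposited notes, and 2886 IDR peaks, which are the pooled regions of highest signal. The deposited signal values are the authors' own and were used to describe, rank and filter regions. The sources used here do not give the aligner, the peak caller, their versions, the signal's scaling or the IDR cutoff. The lists hold no read counts, so depth is unknown and no interval is given. Chromatin was sonicated to 200 to 800 bp, per the labels. Fragment size limits how exactly a summit can be placed.

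Positions (1-based) were compared with Ensembl release 115 genes on BDGP6.54, transposable elements left out; regions on Y (3 pooled, 2 in replicate 1, 1 in replicate 2) were left out. snoRNA, snRNA, tRNA and rRNA genes could not be hosts. Where several summits lay within 1 kb of a gene's TSSs the strongest was used, except where the closest is named. Replicate signals are those of the nearest replicate summit up to 200 bp away. Ribosomal protein genes are those with RpL or RpS symbols and sta, 93 in all. Named genes are hosts of 3 or more snoRNA genes, the 10 highest and 5 lowest bound hosts, the unbound hosts of most snoRNA genes, bound genes outside and in the snoRNA particle list, and CG15812; others were named after their values were seen. A few genes that this rule would name are not reported here. Members and lists were chosen with earlier results of these data known. The search was tested on simulated positions. Python 3.11.15, numpy 2.4.6 and pandas 2.3.3 were used. Alternatives changed the distance, replicate, list length, TSS choice and host choice.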

Additional observations from a re-analysis of the deposited data

How the results depend on the processing

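Of 58 alternative values, 45 stayed within the limit set for them (1.5 times for a count, and the SD of the replicate difference of 0.43 log2 for the median signal) and 13 moved. The count of bound hosts, 53, was 52 with summits within 500 bp, 57 within 2 kb, 47 with 1 TSS per gene, 48 when a region had to overlap a TSS, 39 with the 1443 strongest IDR peaks, and 53 and 53 with the strongest 2886 regions of 1 replicate alone. Background shares over all genes were not recounted under any alternative. These counts therefore do not show how the difference from the background changed. The counts of hosted snoRNA genes near a summit (47) and of those whose summit is also at a host TSS (44) follow the distance: they were 13 and 13 within 500 bp and 110 and 101 within 2 kb, and 4 genes had a region that overlapped their start. The count of genes outside with an IDR summit near (7) was 2 with the 1443 strongest IDR peaks and 3 by overlap, and with 1 replicate alone it ranged from 2 to 6. Those with the summit also at another gene's TSS (5) numbered 1 among those 1443, and from 1 to 5 with 1 replicate alone, the lower values being those without replicate 1. The 9 bound snoRNA particle genes were 4 among those 1443. Ribosomal protein hosts with CTTT numbered 4 at the gene's 5′ end, 11 at any TSS within 3 bp and 23 within 10 bp, settings added after the data were seen. No paired analysis was possible because the 2 samples form 1 group. With 2 replicates and unknown depth, an unbound promoter is one that did not pass the authors' threshold. Signals below the threshold are given above, but whether they mark binding was not tested.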
